A study of Sus scrofa with 2 samples.

Results

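A set of 7 genes for secreted factors of blood vessel growth was followed in cultured porcine adipose-derived stem cells (ADSCs), multipotent stromal cells grown from fat: VEGFA, VEGFB, VEGFC, ANGPT1, ANGPT2, ANGPTL4 and HGF. They were taken by symbol from the 28155 genes of the count matrices, and all 7 were found. The measurements came from 2 single-cell RNA libraries, numbered 1 and 2, which form 1 group. Both hold ADSCs of healthy Bama miniature pigs, taken from fat of the chest, expanded for 3 generations within 14 days and frozen. No treatment is labelled, so comparisons were made between classes of cells within the libraries. Nothing in the labels states that the pair stems from different animals or cultures. The p-values therefore measure only how far these 2 libraries disagree, and that spread may be technical.

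The VEGF proteins bind receptor tyrosine kinases of endothelial cells. VEGFA binds KDR and FLT1, VEGFB binds FLT1, and VEGFC binds FLT4 and KDR and is best known for growth of lymphatic vessels. NRP1 and NRP2 serve as co-receptors. ANGPT1 activates the receptor TEK and stabilises vessels, whereas ANGPT2 binds the same receptor and can block or activate it depending on context. ANGPTL4 resembles them in structure but not in receptor, and is known as an inhibitor of lipoprotein lipase and a target of PPAR factors and of low oxygen. HGF is made by mesenchymal cells and binds MET. Release of such factors is one of the best studied properties of adipose stem cells.

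In the RefSeq annotation of Sscrofa11.1, the build the submitters name, all 7 are protein-coding genes. VEGFA spans 38746393 to 38762282 on chromosome 7 and VEGFB 7872873 to 7876149 on chromosome 2, where ANGPTL4 also lies at 70905767 to 70912892. VEGFC (39037764 to 39136234) and ANGPT2 (37544177 to 37600925) share chromosome 15. ANGPT1 spans 29925203 to 30233434 on chromosome 4, and HGF 98437771 to 98513573 on chromosome 9. Gene length ran from 3277 bases for VEGFB to 308232 for ANGPT1. The span of ANGPT2 overlaps MCPH1, a gene of chromosome condensation and DNA damage response, that of VEGFB overlaps TRPT1, that of HGF a long noncoding RNA (LOC110255496), and that of VEGFA a transfer RNA gene. Whether the counting used strand is not given in the sources used here, so values of these members are uncertain as far as reads could be shared with the overlapping gene.

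Cells were barcodes with at least 1000 genes, 10559 in library 1 and 11984 in library 2, with medians of 19845 and 19651.5 unique molecular identifiers (UMIs, each marking 1 captured molecule) and 209737159 and 245421850 UMIs in all. The libraries shared 46 barcodes. The 10 stromal markers had median levels of 459 and 416 UMIs per 1000000 (CPM), with DCN at 736 and 716. Of 8 endothelial markers 7 were found: CDH5, VWF, CLDN5 and ESAM were at or below 0.210 CPM, but ERG was at 47.0 and 68.9, PECAM1 at 11.4 and 15.01 and EMCN at 7.17 and 7.02. All 8 fat cell markers were under 1 CPM, as were 6 of 8 macrophage markers in both libraries, with C1QA at 0 and CD14 at 25.4 and 21.7 CPM. Of 8 mural markers, PDGFRB stood at 63.0 and 62.7 CPM while RGS5 was at 0.119 and 0.0693. No class of cells known to lack the 7 genes was present, so the share of UMIs from free RNA could not be measured here.

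VEGFB was the most abundant of the 7 factors, and ANGPT2 the least. Levels are given as CPM with exact Poisson 95% intervals, which cover counting error only. The chemistry counts molecules at 1 end of the transcript, so values were not divided by length. VEGFB stood at 124 CPM (123 to 126) in library 1 and 127 (125 to 128) in library 2, and made 49.4% and 51.0% of the UMIs of the 7 genes together.

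The other VEGF genes of the set took opposite places in the libraries. VEGFA stood at 43.6 CPM (42.7 to 44.5) in library 1 and 30.25 (29.6 to 30.9) in library 2. VEGFC stood at 30.5 (29.8 to 31.3) and 43.5 (42.7 to 44.3). Of the UMIs of these 3 genes together VEGFA therefore made 21.98% in library 1 and 15.1% in library 2. VEGFC made 15.4% and 21.7%, while VEGFB kept 62.6% and 63.2%. PGF and VEGFD, listed here among the other ligands, are not in these shares. PGF stood at 34.8 CPM in library 1 and 29.3 in library 2, and VEGFD at 1.59 and 1.69.

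Among the angiopoietins ANGPT1, the activating ligand, was the main one. ANGPT1 was at 14.7 CPM (14.2 to 15.2) and 24.1 (23.5 to 24.8), and ANGPT2 at 3.12 (2.88 to 3.37) and 3.34 (3.12 to 3.58). ANGPT1 made 82.5% and 87.8% of the UMIs of the pair. ANGPTL4 was at 30.4 CPM (29.6 to 31.1) in library 1 and 12.8 (12.4 to 13.3) in library 2. HGF was low, at 4.85 (4.56 to 5.16) and 7.73 (7.39 to 8.09).

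The order of levels in library 1 was VEGFB, VEGFA, VEGFC, ANGPTL4, ANGPT1, HGF and ANGPT2, and the intervals of VEGFC and ANGPTL4 overlapped. In library 2 it was VEGFB, VEGFC, VEGFA, ANGPT1, ANGPTL4, HGF and ANGPT2, with no overlapping intervals. The first place and the last 2 were thus the same in both libraries, and the middle 4 were not.

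**Figure D1:**
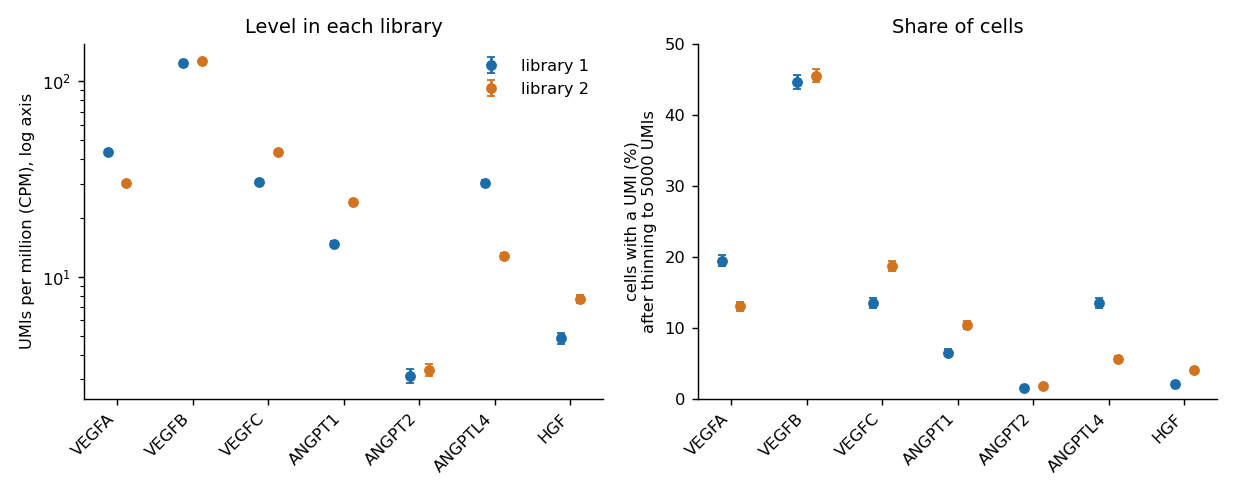
Left, level of each factor (CPM, log axis) in each library with exact Poisson 95% intervals; right, percent of cells with at least 1 UMI after each cell was thinned to 5000 UMIs, with exact binomial 95% intervals. VEGFB is highest in both panels at 124 and 127 CPM, and ANGPTL4 is the gene whose libraries lie farthest apart.

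Most cells held UMIs of few of the factors at equal depth. Random thinning brought every cell to 5000 UMIs, which kept 9581 and 11598 cells and left out 978 and 386 that had fewer. VEGFB was then detected in 44.6% and 45.5% of cells, VEGFA in 19.4% and 13.0%, and VEGFC in 13.5% and 18.7%. ANGPT1 was found in 6.49% and 10.4%, ANGPT2 in 1.49% and 1.72%, ANGPTL4 in 13.5% and 5.62%, and HGF in 2.10% and 3.97%. At full depth the shares were larger, for example 79.1% and 83.6% for VEGFB and 8.04% and 11.8% for HGF. No member was found in 29.8% and 31.0% of thinned cells, exactly 1 in 44.8% and 44.3%, and no cell held 6 or 7, which allows a share of up to 0.0385% and 0.0318% by the exact interval.

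ANGPT1 and ANGPTL4 were the most unevenly spread over cells. The Fano factor (variance over mean, 1 for random counting) of thinned counts was 1.40 and 1.49 for ANGPT1 and 1.27 and 1.29 for ANGPTL4. The median gene at or above 1 CPM had 1.04 and 1.03, and 94.2% and 96.9% of those genes had a lower value than ANGPT1. VEGFB, in spite of its level, stayed at 1.04 and 1.07. VEGFC had a Fano factor of 1.10 and 1.22. At full depth 1 cell of library 2 held 29 VEGFC UMIs, but after thinning no cell there held more than 8.

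Pairs of factors were mostly found in the same cell about as often as the product of their separate shares gives. VEGFC and ANGPT1 met in 128 cells of library 1 against 83.9 for independent detection (ratio 1.53), but in library 2 in 245 against 225 (1.09). VEGFA and ANGPTL4 met in 305 against 252 cells (1.21) in library 1 and in 89 against 84.9 (1.05) in library 2. ANGPT2 and ANGPTL4 met in 21 against 19.3 and in 4 against 11.2. These counts are a description and carry no test.

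The libraries differed most in ANGPTL4, which was 2.37-fold higher in library 1 (log2 ratio 1.24, 95% interval 1.18 to 1.31 from an exact binomial interval of the counts). With 1 library on each side there is no test. Of the 7 factors ANGPTL4 alone was at least 2-fold apart, against 3.16% of the 8042 genes that averaged 10 CPM or more and 5.42% of the 12800 that averaged 1 CPM or more. ANGPT1 was 1.64-fold and HGF 1.59-fold higher in library 2, so 3 of 7 members were at least 1.5-fold apart, against 16.0% of the genes at 1 CPM or more and 11.6% of those at 10 CPM or more. VEGFA was 1.44-fold higher in library 1 and VEGFC 1.42-fold higher in library 2. VEGFB and ANGPT2 lay close, at log2 ratios of -0.03 and -0.10 (interval -0.25 to 0.05). In non-cycling cells alone ANGPTL4 kept 1.25 and the ratio of ANGPT2 was 0.17.

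Gene length moved with the library ratio over all genes. Among genes with at least 10 CPM the median log2 ratio of library 1 over library 2 was 0.05 for the 1809 of up to 10 kb, which class holds VEGFB and ANGPTL4. It was -0.02 for the 3279 of 10 to 50 kb (VEGFA), -0.18 for the 1382 of 50 to 100 kb (VEGFC, ANGPT2 and HGF by length) and -0.32 for the 1572 longer ones (ANGPT1). VEGFC, ANGPT1 and HGF, all higher in library 2, are thus in the classes whose genes were mostly higher there. The part of gene length in these ratios was not tested.

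As a class, cycling cells held less ANGPT1, VEGFC and ANGPTL4 RNA and more HGF and ANGPT2 RNA than non-cycling cells. Cycling cells were those in which 3 or more of 15 core cycle genes had a UMI after thinning (3838 and 4552 cells), and non-cycling cells those in which none had (1897 and 2518). Counts were summed per class and library and tested with edgeR's quasi-likelihood F test with the library as replicate block. To be called, a gene needed an adjusted p (Benjamini-Hochberg) under 0.05, a log2 fold change of 0.5 or more in size, and 1 sign in both libraries. Of the 7 factors 2 rose and 3 fell, against a background of 18.4% of the 17038 genes called (8.57% higher, 9.86% lower). The median log2 difference was -0.32 over the members and -0.01 over all genes tested. Cycling cells had median UMI counts of 22743.5 and 20780.5 and non-cycling cells 20140 and 20165.5.

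ANGPT1 fell most among the members, from 19.3 CPM in non-cycling to 10.0 in cycling cells of library 1 and from 30.3 to 16.1 in library 2. Both cycling values lay below both non-cycling values. The log2 difference was -0.99 ± 0.07 (SE; edgeR adjusted p = 3.67e-23). VEGFC went from 37.1 to 22.7 CPM and from 52.5 to 32.4, a log2 difference of -0.76 ± 0.06 (edgeR adjusted p = 5.47e-21), again with no overlap. ANGPTL4 went from 36.7 to 25.7 CPM and from 15.5 to 10.6, a difference of -0.58 ± 0.07 on the log2 scale (edgeR adjusted p = 2.63e-12). For ANGPTL4 the libraries lay farther apart than the classes, so the values overlap across libraries. Cycling cells were not uniform in ANGPTL4: a cluster led by CCNB1, with 94.1% and 95.1% of its cells cycling, held 32.0 and 18.5 CPM, which in library 2 is above the 15.5 of the non-cycling cells.

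HGF, the ligand of MET, rose from 3.82 to 5.84 CPM in library 1 and from 5.62 to 9.49 in library 2, by 0.63 ± 0.10 on the log2 scale (edgeR adjusted p = 1.30e-07). ANGPT2 rose from 2.33 to 3.63 CPM and from 2.06 to 4.29, by 0.80 ± 0.14 (edgeR adjusted p = 9.19e-07). These rest on few molecules, for ANGPT2 on 89 and 105 UMIs in the non-cycling cells. MCPH1, which overlaps ANGPT2, moved the same way by 0.39 ± 0.06 (edgeR adjusted p = 3.23e-08), from 25.8 to 35.0 CPM and from 30.9 to 42.3, and its part in the ANGPT2 counts was not tested. LOC110255496, which overlaps HGF, was at 0.578 and 0.366 CPM in cycling and non-cycling cells of library 1 and 0.548 and 0.609 in library 2.

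VEGFA and VEGFB stayed within the size limit. VEGFA was 48.6 CPM in non-cycling and 39.7 in cycling cells of library 1 and 32.6 and 27.9 in library 2 (log2 difference -0.32 ± 0.06; edgeR adjusted p = 2.12e-06). VEGFB was 116 and 136 CPM, then 118 and 135 (0.15 ± 0.05; edgeR adjusted p = 0.0124). An adjusted p under 0.05 alone was reached by 46.0% of genes in this comparison. All 5 calls of members were lost without the replicate block (edgeR adjusted p from 0.168 to 0.764), where the difference between libraries enters the spread.

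Along the number of core cycle genes with a UMI, a split chosen after the data were seen, ANGPT1, VEGFC and ANGPTL4 declined over the range. From cells with 0 to cells with 10 or more, VEGFC went from 37.1 to 19.4 CPM in library 1 and from 52.5 to 24.1 in library 2. ANGPTL4 went from 36.7 to 17.9 and from 15.5 to 7.57. ANGPT1 went from 19.3 to 6.65 in library 1, and in library 2 from 30.3 to 11.9 with 6 to 9 genes and 14.3 with 10 or more. HGF had its highest value in the middle, with 3 to 5 genes, at 6.31 and 11.2 CPM against 4.88 and 7.37 with 10 or more. Cells with 10 or more also had the most UMIs, with medians of 30486 and 29502.

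**Figure D2:**
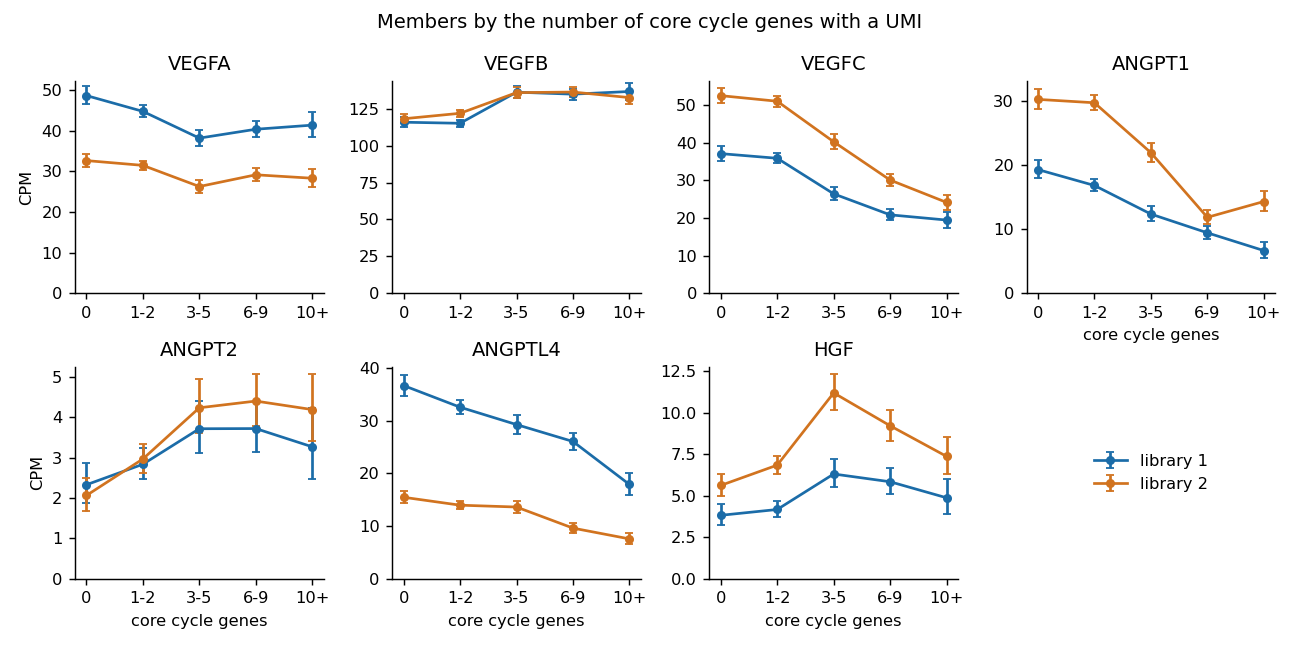
Level (CPM, linear axis from 0) of each factor in cells grouped by how many of 15 core cycle genes had a UMI after thinning to 5000 UMIs, with exact Poisson 95% intervals, by library. VEGFC falls from 37.1 to 19.4 and from 52.5 to 24.1 CPM, while HGF peaks at 6.31 and 11.2 CPM with 3 to 5 genes.

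The other genes of these pathways, from lists drawn up with the members, mostly fell in cycling cells where they changed. Of 8 receptors only 4 passed the filter on low counts, since KDR, FLT4, TEK and TIE1 were at or below 0.138 CPM in both libraries. MET, the HGF receptor, rose by 0.85 ± 0.09 (edgeR adjusted p = 6.34e-14), from 6.75 to 11.04 and from 6.51 to 13.7 CPM. FLT1 rose by 0.85 ± 0.19 from a low level (3.12 and 0.727 CPM). NRP2 fell by 0.76 ± 0.07 on the log2 scale. NRP1, the most abundant receptor at 74.3 and 61.2 CPM over all cells, was also lower, at -0.497 ± 0.054 (edgeR adjusted p = 1.20e-13). That is just under the size limit, so NRP1 was not called.

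Of 13 other ligands tested 0 rose and 5 fell, led by the ribonuclease ANG (-1.47), the heparin-binding growth factor PTN (-0.80) and CXCL12 (-0.68). Among 10 angiogenesis inhibitors 0 rose and 4 fell, with THBS1 (-1.07), THBS2 (-0.84) and ISM1 (-0.82) lowest. In the list of 12 ligand processing genes tested 0 rose and 4 fell, among them CCBE1 (-0.77), which assists the maturation of VEGFC and stood at 135 and 208 CPM over all cells. Of 9 oxygen and lipid regulators 0 rose and 2 fell, EPAS1 (-1.27) and PPARA (-0.58). The list medians were -0.38, -0.25, -0.28 and -0.10.

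Beside the 9.86% of all genes that fell and the 8.57% that rose, contractile genes fell in 10 of 13 cases, inflammatory genes in 8 of 15, stromal markers in 4 of 10, mural markers in 3 of 6 with 1 higher, and fat cell markers in 2 of 4. Counts nearer that background, or from few genes, came from the remaining lists. Of hypoxia genes 2 of 24 fell and 0 rose, of unfolded protein genes 2 of 17 fell and 1 rose, of endothelial markers EMCN alone of 5 rose, and of 4 macrophage markers none was called. The part of these genes in the members' differences was not tested.

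Within non-cycling cells, those with the most contractile gene RNA held more ANGPTL4 and ANGPT1 RNA. The score averaged 13 genes of the smooth muscle and stress fibre apparatus, such as ACTA2 and TAGLN, and the upper and lower quartiles of cells within each library were compared (474 and 475, 629 and 630 cells). A quartile of a score is a range of cells and not a type. Of 7 members 2 rose and 2 fell, against 10.2% of 13177 genes called (5.24% higher, 5.00% lower), with a median of 0.18 over members and 0.00 over all genes. Median UMIs were 19456 against 19999 in library 1 and 21516 against 20151.5 in library 2. This comparison shares its cells with the non-cycling side of the cycle comparison.

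ANGPTL4 was 23.8 CPM in the lower and 45.6 in the upper quartile of library 1, and 7.77 and 23.8 in library 2. The log2 difference was 1.26 ± 0.12 (edgeR adjusted p = 4.23e-24), 0.97 in library 1 and 1.66 in library 2. Over the 4 quartiles it rose at each step in both libraries, through 36.4 and 40.8 CPM and through 12.6 and 16.9. ANGPT1 was 14.8 and 25.1 CPM in library 1 and 21.6 and 35.7 in library 2, a difference of 0.80 ± 0.12 (edgeR adjusted p = 1.58e-10), also with a rise at each step. The upper values of ANGPT1 lay above both lower values, whereas those of ANGPTL4 overlapped across libraries.

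VEGFA was also higher at each step, from 42.8 through 44.97 and 52.0 to 54.9 CPM in library 1 and from 26.8 through 30.2 and 35.6 to 37.4 in library 2. Its difference of 0.47 ± 0.09 (edgeR adjusted p = 9.45e-06) was just under the size limit, as for other genes among the 20.7% that reached an adjusted p under 0.05 alone, and was called with thinned counts (0.52) and over all cells (0.54). VEGFC was at -0.03 in library 1 and 0.33 in library 2 (0.18 ± 0.09), and VEGFB at -0.03 ± 0.07.

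The low-level members HGF and ANGPT2 were lower in the upper quartile. HGF was 5.09 and 2.53 CPM in library 1 and 7.21 and 4.49 in library 2 (-0.74 ± 0.23; edgeR adjusted p = 0.0100), from 48 and 24 and from 89 and 61 UMIs. The HGF call was lost with DESeq2 (adjusted p = 0.655), with thinned counts (edgeR adjusted p = 0.250) and without the 8% of cells with the most UMIs (edgeR adjusted p = 0.102). ANGPT2 was 3.18 and 1.27 CPM, then 3.00 and 1.54 (-1.05 ± 0.35; edgeR adjusted p = 0.0174), from 30 and 12 and from 37 and 21 UMIs. Its call was lost with DESeq2 (adjusted p = 0.716), with tertiles in place of quartiles (edgeR adjusted p = 0.0781) and with thinning to 3000 UMIs (edgeR adjusted p = 0.0555). MCPH1 moved the same way by -0.35 ± 0.11 (edgeR adjusted p = 0.00896). All 4 member calls were lost without the replicate block (edgeR adjusted p from 0.464 to 0.775).

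**Figure D3:**
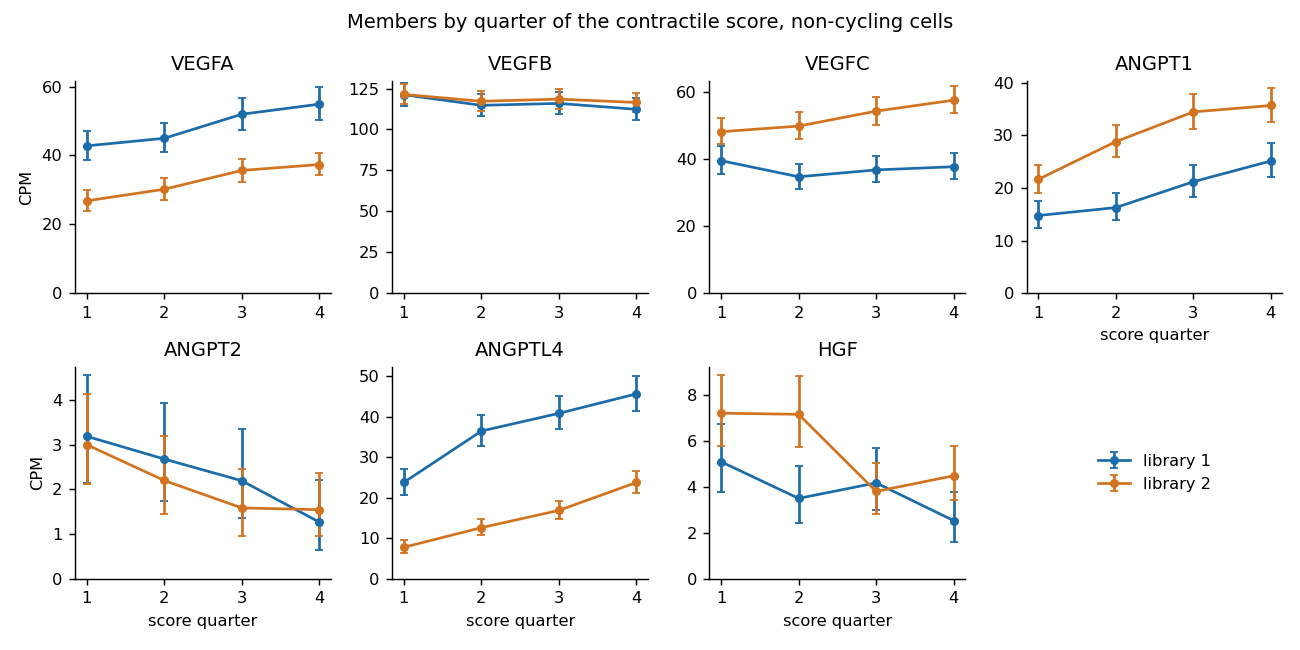
Level (CPM, linear axis from 0) of each factor in the 4 quartiles of the contractile score within non-cycling cells, with exact Poisson 95% intervals, by library. ANGPTL4 rises from 23.8 to 45.6 CPM in library 1 and from 7.77 to 23.8 in library 2, and the intervals of ANGPT2 and HGF are wide.

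Receptors split between the quartiles as well. MET was 11.6 CPM in the lower and 1.69 in the upper quartile of library 1 and 11.01 and 2.13 in library 2 (-2.47 ± 0.23; edgeR adjusted p = 2.35e-25). NRP2 rose by 1.10 ± 0.12 and NRP1 by 0.52 ± 0.08. HGF and its receptor MET were thus both higher in cycling cells and lower in the contractile quartile. The 2 comparisons share non-cycling cells and are not independent, and the HGF call in the quartile was lost in 4 of 8 alternative settings.

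Of 12 other ligands 2 rose (PTN 1.67 and APLN 1.09) and 2 fell (VEGFD -3.54 and ANGPTL1 -1.11). Of 10 inhibitors 2 rose (THBS2 0.73 and SERPINF1 0.63) and 3 fell (SEMA3A -1.03, ADAMTS1 -0.76 and TIMP3 -0.55). ADAMTS14 was the 1 called of 10 processing genes (0.68). Of 9 oxygen and lipid regulators PPARG (0.72) and EPAS1 (0.63) rose and 0 fell. Inflammatory genes rose in 4 of 15 cases (IL1A 2.47), hypoxia genes in 3 of 23 with 1 lower, and unfolded protein genes in 2 of 17. Core cycle genes fell in 3 of 14. These cells were chosen for having no UMI of core cycle genes after thinning, so only counts left out by thinning remain for them. Of markers, COL1A1 (0.59) of 10 stromal and ABCC9 (0.77) of 5 mural genes rose, EMCN (-2.69) and ERG (-0.77) of 3 endothelial genes fell, and CD14 (-0.54) of 2 macrophage genes fell. The only fat cell marker tested, FABP4, had 0 UMIs in the lower quartile of both libraries and 1.06 and 2.50 CPM in the upper.

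Scores of low oxygen, unfolded protein and inflammatory genes, formed in the same way, gave 0 called members each. The background was 0.342% of 13157 genes for hypoxia, 0.623% of 13165 for unfolded protein and 1.75% of 13111 for inflammation. At an unadjusted p under 0.05 the members counted 1, 3 and 3 with edgeR, beside 935, 1762 and 1751 of all genes tested. With DESeq2, which also called no member, they counted 1, 1 and 1, beside 79, 382 and 379 of all genes tested.

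Across the hypoxia score, VEGFA, the classic low-oxygen target of the family, was higher at each quartile but by less than the size limit. It ran 43.3, 46.3, 50.1 and 54.5 CPM in library 1 and 28.5, 30.2, 34.0 and 37.4 in library 2. The upper against the lower quartile differed by 0.34 ± 0.09 (edgeR adjusted p = 0.0355, reached under 0.05 by 0.752% of genes), and by 0.67 with a call when thinned counts were summed. ANGPTL4 differed by 0.17 ± 0.11 (edgeR adjusted p = 0.869), at 36.4 and 38.4 CPM in library 1 and 14.3 and 18.0 in library 2. The upper quartile also had more UMIs per cell, 21227.5 against 19993 and 21844 against 18114.5, whose part was not tested.

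With the unfolded protein score VEGFA was 41.5 and 60.6 CPM in the lower and upper quartile of library 1 and 28.1 and 36.2 in library 2 (0.43 ± 0.09; edgeR adjusted p = 0.0776). ANGPTL4 was higher by 0.42 ± 0.12 (edgeR adjusted p = 0.159) and VEGFC lower, at -0.34 ± 0.09 (edgeR adjusted p = 0.123), without a call. With the inflammatory score VEGFC was 36.5 and 43.2 CPM, then 48.0 and 62.2 (0.35 ± 0.09; edgeR adjusted p = 0.0377), below the size limit, where 2.89% of genes had an adjusted p under 0.05.

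ANGPTL4 parted by library under the inflammatory score. It was 25.7 and 48.5 CPM in library 1 but 12.9 and 14.1 in library 2, and the overall difference of 0.62 ± 0.17 was not called (edgeR adjusted p = 0.113). It was called without the filter on low counts and over all cells. VEGFA likewise differed by 0.45 in library 1 and -0.03 in library 2. Whether the libraries differ in these responses was not tested, with 1 library on each side.

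Of the receptor, ligand, inhibitor, processing and regulator lists, only FGF2 (0.84) and THBS1 (0.65) were called, both higher with the inflammatory score.

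**Figure D4:**
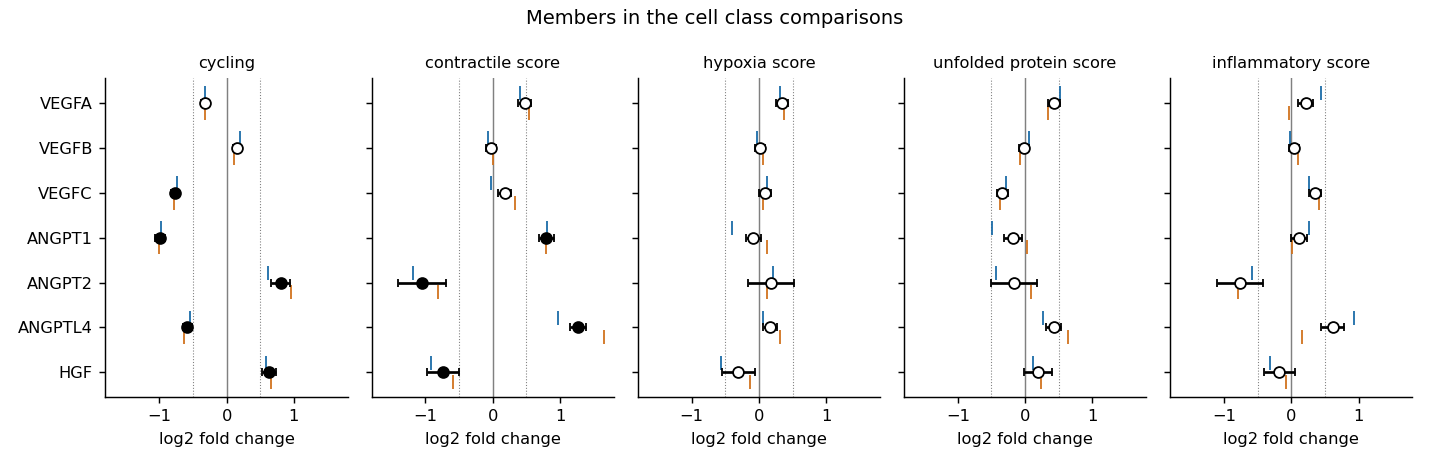
Log2 fold change of each factor in 5 comparisons (cycling against non-cycling, and upper against lower quartile of 4 scores), with SE derived from edgeR's F statistic. Filled points were called, dotted lines mark 0.5, and blue and orange ticks are library 1 and library 2 alone. ANGPT1 and ANGPTL4 are called lower in cycling cells and higher in the contractile quartile, and HGF and ANGPT2 the reverse; the first 2 comparisons share cells.

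Cells with a UMI of each factor were then compared with cells without one, to see which genes accompany it. One fit was made per factor, the factor itself was left out, and p-values were adjusted over all 7 fits. The 7 fits gave 1068 calls in sum, in which a gene called in several fits counts once for each. The shares were 0.453% of genes for VEGFA, 0.0887% for VEGFB, 0.544% for VEGFC, 1.74% for ANGPT1, 1.00% for ANGPT2, 1.49% for ANGPTL4 and 0.681% for HGF. Detection depends on the number of cells, so these shares do not rank the factors. A single member was called in another's fit: ANGPTL4 was lower in ANGPT2 cells (-0.54 ± 0.14; edgeR adjusted p = 0.00449), at 24.4 against 30.4 and 7.35 against 12.9 CPM. That call was absent with DESeq2, with thinned counts, in non-cycling cells and without the replicate block, where the 7 fits gave 0 calls (edgeR, 1612 in sum at an unadjusted p under 0.05).

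Below the size limit, 2 pairs of members were linked at an adjusted p under 0.05 whichever of them was used to split the cells. That threshold alone was passed by 3.50% of genes for VEGFA, 6.68% for VEGFC, 7.95% for ANGPT1, 4.44% for ANGPT2 and 6.99% for ANGPTL4. ANGPT1 was higher in VEGFC cells (0.24 ± 0.05; edgeR adjusted p = 0.000857) and VEGFC in ANGPT1 cells (0.33 ± 0.06; edgeR adjusted p = 5.97e-06). ANGPTL4 was higher in VEGFA cells (0.27 ± 0.05; edgeR adjusted p = 1.22e-05) and VEGFA in ANGPTL4 cells (0.20 ± 0.05; edgeR adjusted p = 0.0288). The 2 tests of a pair use the same cells. Cells with a UMI of these members were also less often cycling. The share was 31.6% and 32.5% for VEGFC against 41.4% and 40.8% of other cells. For ANGPT1 it was 28.1% and 26.7% against 40.9% and 40.7%. For VEGFA it was 35.9% and 36.5% against 41.1% and 39.7%, and for ANGPTL4 34.3% and 31.6% against 41.0% and 39.7%. The part of the cell cycle in these links is not separated here. Another 4 links passed in only 1 of their 2 tests. ANGPTL4 was lower in VEGFC cells (-0.24 ± 0.05; edgeR adjusted p = 0.00217) and ANGPT1 higher in ANGPTL4 cells (0.30 ± 0.07; edgeR adjusted p = 0.00996). ANGPT1 was lower in ANGPT2 cells (-0.49 ± 0.14; edgeR adjusted p = 0.0164) and VEGFB in VEGFA cells (-0.11 ± 0.03; edgeR adjusted p = 0.0330).

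VEGFB cells had no named companion above 10 CPM. At full depth VEGFB had a UMI in 79.1% and 83.6% of cells, against 44.6% and 45.5% after thinning. Many cells counted as without VEGFB thus held its RNA, so this split separates cells poorly. In VEGFA cells 2 genes qualified, ALDH1A3 (0.69 ± 0.06), which makes retinoic acid, and the collagen cross-linking enzyme LOXL2 (0.51 ± 0.06). VEGFC cells held more of the chemokine CCL5 (0.84 ± 0.09) and of EDIL3 (0.56 ± 0.05), and both were also called within non-cycling cells. They held less of the cell division genes PIMREG, MXD3, CDCA3, CDC20 and PLK1, from -0.60 to -0.58, none of which was called within non-cycling cells. Those cells were chosen for having no UMI of the core cycle genes, PLK1 among them, after thinning. The missing calls are thus not informative for cell division genes.

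ANGPTL4 cells held more RNA of contractile genes: of 13 on that list 7 were higher and 0 lower. The same 13 genes formed the contractile score, and the cells overlap. This is thus the earlier link with the split turned round, and not further evidence. LCN2 (1.33 ± 0.06), ALDH1A3 (1.30 ± 0.09), the smooth muscle actin ACTA2 (1.20 ± 0.04), the adhesion molecule VCAM1 (1.02 ± 0.08) and the BMP modulator BMPER (0.94 ± 0.05) led the 67 named genes that were higher. ACTA2 stood at 133 against 61.7 CPM in library 1 and 259 against 108 in library 2. FST (-1.03), NGEF (-0.91), VGF (-0.90), KCNMA1 (-0.85) and CACNA1D (-0.82) led the 38 that were lower. All 10 were called in non-cycling cells too. The regulators PPARG (0.70) and EPAS1 (0.55) and the co-receptor NRP1 (0.57) were higher, and MET (-0.82) and FLT1 (-0.82) lower.

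In ANGPT1 cells 5 of 13 contractile genes were higher, again the genes of the contractile score and so not separate from that comparison. PDE1A (0.73 ± 0.06), ALDH1A3 (0.72 ± 0.08), the cathepsin CTSL (0.71 ± 0.06), IL1A (0.70 ± 0.08) and ACTA2 (0.69 ± 0.05) led the 37 higher genes. Of these only ALDH1A3 was called within non-cycling cells, where ACTA2 was at 0.12. Somatostatin, SST (-1.68 ± 0.11), and the mitotic genes BUB1, SGO2, CENPN and CDC20 (-0.89 to -0.83) led the 87 lower genes, and 13 of 15 core cycle genes were lower. Within non-cycling cells, chosen for having no UMI of the core cycle genes after thinning, SST was at 0.01 and CENPN at 0.28. ANGPT1 cells had fewer UMIs in library 1 (median 17466.5 against 21315) and 19565.5 against 20207.5 in library 2. Of them 28.1% and 26.7% were cycling, against 40.9% and 40.7% of other cells.

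HGF cells had no named gene above 10 CPM that was higher. LCN2 (-1.41 ± 0.12), the hyaluronan-degrading CEMIP (-1.05 ± 0.05), LOXL2 (-0.97 ± 0.12), TXNIP (-0.84 ± 0.15) and the serine synthesis enzyme PSAT1 (-0.79 ± 0.05) led the 34 that were lower. LCN2 stood at 6.42 against 17.6 CPM in library 1 and 9.49 against 23.5 in library 2. LCN2, CEMIP and PSAT1 were also called within non-cycling cells. The noncoding LOC110255496, which overlaps HGF, was higher in HGF cells by 1.43 ± 0.46 (edgeR adjusted p = 0.0379), at 2.06 against 0.543 and 1.43 against 0.623 CPM. This rests on few molecules, since LOC110255496 had 122 and 161 UMIs over all cells. MET was not called in HGF cells (0.30 ± 0.12; edgeR adjusted p = 0.162).

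ANGPT2 cells were few, 143 and 199. The growth factor AREG (0.80 ± 0.09), the tubulin TUBB2B (0.70 ± 0.12) and the replication genes ORC1 (0.70), E2F1 (0.68) and ATAD5 (0.67) were higher, and SOX18 (-1.36 ± 0.21), CHSY3 (-0.96), CLEC3B (-0.96), CXCL14 (-0.91) and GPC6 (-0.86) lower. Within non-cycling cells AREG was at -0.17 and E2F1 at -0.42, from 22 and 25 cells. TUBB2B (1.48), SOX18 (-3.66), CXCL14 (-1.34) and GPC6 (-2.21) were called there as well. Those ANGPT2 cells held 426045 and 449884 UMIs in all, so the counts behind these 4 calls are small. With DESeq2 over all cells ORC1, E2F1, ATAD5, CLEC3B and GPC6 were not called, nor were ACTA2 in ANGPT1 cells and TXNIP in HGF cells among the companions named above. MCPH1 was at 41.7 against 30.0 and 42.2 against 36.1 CPM in these cells (0.28 ± 0.10; edgeR adjusted p = 0.0662).

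Clusters of cells, formed without any gene of the lists, placed the factors as follows. This is a description with no test, since clusters are defined on the same cells, and clusters are given by number. Cluster 2, led by CEMIP, ALDH1A3, ACTA2 and LCN2, held 31.5% and 31.9% of cells, and ANGPTL4 was at 44.9 and 21.2 CPM in it, against 23.2 and 7.58 in cluster 1 (ALDH1A1, NTM and CLEC3B). ANGPT1 was at 23.8 and 36.4 in cluster 2 against 12.02 and 21.7 in cluster 1, and VEGFA at 53.8 and 37.9 against 38.4 and 24.4. VEGFC differed little between them, at 35.5 and 50.2 against 35.3 and 51.0.

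The 2 clusters of dividing cells were not alike. ANGPTL4 was at 21.8 and 7.06 CPM in cluster 3 (TOP2A and CDK1) but at 32.0 and 18.5 in cluster 4 (CCNB1, PIMREG and CDC20), and HGF in cluster 4 was 13.0 CPM in library 2 against 7.66 in cluster 3. In library 1 HGF was 5.996 in cluster 4 and 5.55 in cluster 3. ANGPT2 had its highest values in cluster 3, at 4.40 and 5.00.

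Cluster 6, led by mitochondrial ribosomal RNAs, was small (196 and 101 cells) and shallow (median 4054.5 and 3416 UMIs). In it ANGPT1 reached 89.1 and 159 CPM and VEGFC 77.9 and 149, from 80 and 62 and from 70 and 58 UMIs, while VEGFB was at 37.8 and 18.0, below its range of 110 to 149 in clusters 1 to 5. VEGFA was at 139 CPM in library 1 but 41.1 in library 2, the latter from 16 UMIs. The endothelial marker sum there was 252 and 457 CPM, against 49.6 to 118 in clusters 1 and 2, and the mural marker sum 208 and 298 against 86.6 to 115. The macrophage marker sum was 27.8 and 7.70 CPM, against 21.6 to 34.2. Over all cells ERG alone made 47.0 of 66.1 and 68.9 of 91.2 CPM of the endothelial sum. PDGFRB made 63.0 of 88.8 and 62.7 of 99.5 CPM of the mural sum. Single markers were not split by cluster, so the sums name no cell type. The parts of depth and of mitochondrial RNA in the values of cluster 6 were not tested. At resolution 0.8 a cluster of 268 and 676 cells led by ACTA2, LCN2 and ACTG2 held ANGPTL4 at 82.5 and 42.3 CPM. Another, of 156 and 302 cells led by MUC12, SLPI and GPX3, held VEGFC at 71.8 and 112.

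**Figure D5:**
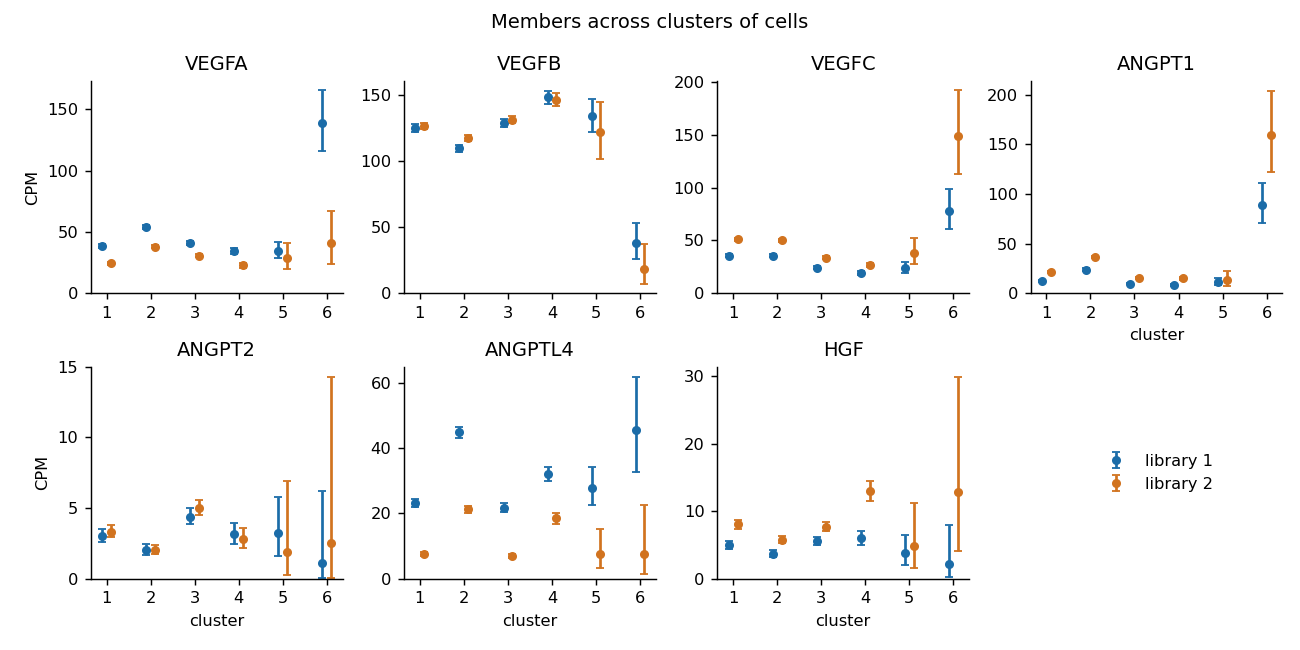
Level (CPM, linear axis from 0) of each factor in 6 clusters, by library, with exact Poisson 95% intervals. ANGPTL4 is higher in cluster 2 (44.9 and 21.2 CPM) than in cluster 1 (23.2 and 7.58), and ANGPT1 and VEGFC are highest in the small cluster 6.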

How the data were processed

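The authors deposited unnormalised UMI counts for each gene in each barcode. The file headers name Cell Ranger 7.0.0 as the software, and the submitters' processing notes name version 7.00 and genome build Sscrofa11.1, while the annotation used is not given in the sources used here. Both the members and the gene lists were chosen with earlier results of these data known. Barcodes with at least 1000 genes were kept (1692 and 972 were left out). Levels are summed counts scaled to 1e+06 UMIs per library (CPM). Each cell was thinned to 5000 UMIs to set its class, and tests used full counts summed per library and class, with edgeR 4.0.16 in R 4.3.3 (TMM, filterByExpr, robust quasi-likelihood fit, library as replicate block, 1 residual degree of freedom per gene). The library is the replicate, since both classes of a comparison come from the same library. Each SE was derived as the size of the log2 fold change over the square root of edgeR's F statistic. Scores average log thinned counts scaled within the library. Genes named are all 7 members, up to 3 called per list and direction, and up to 5 called companions per direction with at least 10 CPM. For LOC110255496 and MCPH1, and for members in cluster 6, values were chosen after they were seen. Clusters used scanpy 1.11.5 and leidenalg 0.10.2 (resolution 0.4, with 0.8 as alternative). No doublet caller was run. Leaving out the 8% of cells with the most UMIs was an alternative, as were DESeq2 1.42.0, no filter, no block, other thinning and, for scores, tertiles or all cells. Sequences of the members are not shown.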

Additional observations from a re-analysis of the deposited data

Results flagged for a closer look

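Barcodes with fewer than 1000 genes, which no comparison used, also held UMIs of the factors, above the limit of 3 counts. In library 1 these barcodes gave 37.4 CPM of VEGFA, 109 of VEGFB, 45.8 of VEGFC, 18.4 of ANGPT1, 6.14 of ANGPT2, 29.0 of ANGPTL4 and 7.82 of HGF, from 67, 196, 82, 33, 11, 52 and 14 UMIs. In library 2 they gave 46.9 CPM of VEGFA, 106 of VEGFB, 52.5 of VEGFC, 48.0 of ANGPT1, 11.2 of ANGPTL4 and 12.3 of HGF, from 42, 95, 47, 43, 10 and 11 UMIs.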

How the results depend on the processing

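With 2 libraries, a test leaves a gene 1 residual degree of freedom and borrows spread from all genes, and ANGPT2 and HGF in the score quartiles rest on under 100 UMIs a class. Without the replicate block the genes called fell from 3140 to 415 for cycling, from 1350 to 3 for the contractile score, and from 45, 82 and 230 to 0, 0 and 0 for hypoxia, unfolded protein and inflammation (edgeR, 59, 242 and 225 at an unadjusted p under 0.05). Members called went to 0 for cycling and 0 for the contractile score (1 and 2 at an unadjusted p under 0.05, beside 2942 and 1139 of all genes tested). For cells with a UMI of a member, calls summed over the 7 fits, in which a gene can count more than once, went from 1068 to 0 (1612 at an unadjusted p under 0.05), and other members called from 1 to 0. With DESeq2 the counts were 2075 for cycling, 575 for the contractile score with 2 members (ANGPT1 and ANGPTL4), 11, 30 and 64 for the other scores, and 373 with 0 other members for cells with a UMI of a member. Summing thinned counts gave 780 genes for the contractile score, 35 for unfolded protein, 91 for inflammation, 1 member (VEGFA) for hypoxia, and 615 with 0 other members for cells with a UMI of a member. Over non-cycling cells the last were 342 and 0. All cells gave 85 genes for hypoxia and 1 member (ANGPTL4) for inflammation. No filter gave 204 genes for unfolded protein and 1 member (ANGPTL4) for inflammation, and thinning to 3000 UMIs 138 for unfolded protein. Leaving out the 8% of cells with the most UMIs gave 138 for unfolded protein, 148 for inflammation and 2 other members for cells with a UMI of a member. Tertiles gave 143 for unfolded protein and 121 for inflammation. The causes were not tested.

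Among members no called difference changed sign. Differences that were not called did so for ANGPT1 with hypoxia (0.12 with thinned counts, 0.038 over all cells), ANGPT2 with hypoxia (-0.15 over all cells), VEGFB with unfolded protein (0.10 with thinned counts, 0.00077 without the deepest cells), VEGFC with unfolded protein (0.097 with thinned counts) and ANGPT2 with unfolded protein (0.10 with 3000 UMIs). HGF with unfolded protein was -0.24 with 3000 UMIs, -0.0063 with tertiles and -0.18 over all cells. With inflammation VEGFB was -0.065 with thinned counts and -0.042 over all cells, ANGPT2 0.021 over all cells, and HGF 0.39 with thinned counts. In non-cycling cells SST was 0.010 and CENPN 0.28 with ANGPT1, and AREG -0.17 and E2F1 -0.42 with ANGPT2. Averaging CPM per cell in place of summing moved 8 of 14 levels beyond their counting intervals, for example ANGPT1 in library 1 from 14.7 to 18.8. Values with either library left out are those of the other alone and carry no test.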
